A study of Mus musculus with 8 samples.

Results

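The prostaglandin and leukotriene pathway was followed through 10 genes in macrophages sorted from the epididymal fat pad (eWAT), a visceral white fat depot of male mice. The genes were taken from a list of names, and all 10 were found among the 41388 genes of each count table and passed the filter on low counts, which left 13933 genes. The cells came from 4 male MitoFat mice on normal chow, a strain in which mitochondria of adipocytes carry a reporter. Live cells that stained for CD45 (leukocytes) and for F4/80 and CD64 (macrophages) were sorted and parted into cells without the reporter signal (mtD2-) and cells with it (mtD2+), so each mouse gave 1 library of each population and the 8 libraries form 4 pairs. The mice share strain, sex and diet, and no other genotype or treatment enters the comparison. The labels used here state neither their age nor how many cells were sorted. The comparison asks whether macrophages that hold adipocyte mitochondria differ from macrophages of the same fat pad that do not.

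Prostaglandins and leukotrienes are short-lived lipid signals made from arachidonic acid. A phospholipase frees the fatty acid from membranes, cyclooxygenases turn it into prostaglandin H, and separate synthases then make prostaglandin E, prostaglandin D, prostacyclin or thromboxane. Lipoxygenase, helped by a membrane partner, leads instead to leukotrienes, which synthases finish as leukotriene B or as cysteinyl leukotrienes. Macrophages hold both branches and are a main source of these lipids in tissue, where they steer inflammation, blood flow and, in fat, the breakdown of stored lipid.

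None of the 10 genes passed the test between the populations. By edgeR's quasi-likelihood test with the mouse as a block, 0 of 10 had a Benjamini-Hochberg adjusted p under 0.05, against 5.50% of all tested genes, and 2 of 10 (Hpgds and Alox5ap) had an unadjusted p under 0.05, against 22.8%. Hpgds was the only gene of the 10 called by the DESeq2 Wald test, which called 13.0% of all genes, and by limma voom, which called 7.65%. The lowest adjusted p by edgeR was that of Hpgds, the hematopoietic prostaglandin D synthase, with a mean of 208 ± 31.2 CPM in mtD2- cells and of 304 ± 39.9 CPM in mtD2+ cells (SD, n = 4 mice), with an adjusted p of 0.0765. Beyond the 10, Hpgd, which begins the breakdown of prostaglandins, fell from 296 ± 47.6 to 195 ± 7.91 CPM (adjusted p = 0.0319), a call lost without the block (adjusted p = 0.0597) and on leaving out mouse 1, 2 or 3 (0.1 to 0.16). Fibroblast marker sums were lower in mtD2+ as well, and their part in the fall of Hpgd was not tested. CPM here are counts scaled per 1000000 counts of the tested genes after TMM scaling, fold changes are mtD2+ over mtD2- on the log2 scale, and adjusted p-values of single genes are from edgeR unless another tool is named. In bulk RNA, fewer cells of a type and less RNA per cell cannot be told apart.

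The tables hold 18462287 to 27464399 gene-assigned counts per library. All 8 macrophage markers looked at were tested, Csf1r stood at 2106 to 2891 CPM and Cd68 at 1502 to 2159 CPM over the 8 libraries, and the sum of the 8 was 9905 to 11825 CPM in mtD2- and 8746 to 10545 in mtD2+. Of the 8, Adgre1, which encodes the sort marker F4/80, was called lower in mtD2+ (log2 -0.55, adjusted p = 0.0336) and Mertk, a receptor for the uptake of dying cells, higher (log2 0.51, adjusted p = 0.0342). Fcgr1, which encodes the sort marker CD64, was lower in 4 of 4 mice with no overlap (log2 -0.44, adjusted p = 0.0554). Other cells known for these enzymes were scarce. Mast cell markers summed to 1.8 to 11.9 CPM in mtD2- and 3.0 to 13.9 in mtD2+, with Ms4a2 and Fcer1a at 0 counts in every library. Eosinophil markers summed to at most 2.0 CPM, with Prg2, Epx and Ear6 at 0. Neutrophil markers summed to at most 4.3 CPM in 7 libraries and to 46.1 CPM in the mtD2+ library of mouse 4, with Ly6g at 0 throughout, and 6 platelet markers summed to at most 11.6 CPM. Fibroblast and adipose precursor markers differed: edgeR called 9 of 15 lower in mtD2+ and 0 higher, beside 1.78% and 3.72% of all tested genes. All 15 fold changes were negative. Their sum was 1881 to 4706 CPM in mtD2- and 635.8 to 935.1 CPM in mtD2+. Most of that sum in every library was Gsn, which macrophages also make, at 967 to 3269 CPM in mtD2- and 392 to 667 CPM in mtD2+. The 6 adipocyte markers summed to 92.0 to 166.5 CPM in mtD2- and 106.1 to 239.3 CPM in mtD2+, higher in mtD2+ in 4 of 4 mice by 0.03 to 0.97 on the log2 scale, with 0 of 6 called by edgeR and 2 at an unadjusted p under 0.05. Endothelial markers summed to 17.2 to 20.9 CPM and 11.4 to 36.5 CPM, mesothelial markers to at most 33.8 CPM and lymphocyte markers to at most 10.9 CPM. The mtD2- library of mouse 4 had the highest fibroblast sum, and for 24 genes that respond to tissue dissociation it stood at 33256 CPM, against 16188 to 22092 in the other mtD2- libraries and 29239 to 35016 in mtD2+.

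For 9 of the 10 genes RefSeq gave a promoter window of 300 bases, from 250 before the annotated start to 50 after it, on build GRCm38.p6. The windows of 3 genes are shown: Ptgs2, the inducible cyclooxygenase, whose level in mtD2- cells varied most between mice among the genes above 10 CPM; Ptgs1, its constitutive counterpart; and Hpgds, the gene with the largest difference between the populations. They lie at chr1:150099781-150100080 (plus strand), chr2:36230176-36230475 (plus strand) and chr6:65144681-65144980 (minus strand), and are written 5′ to 3′ along the gene. Capitals mark matches on either strand to 5 short motifs. The TATA box, found just before the start of some genes, was searched as TATAAA. The core of the cAMP response element (CRE) was searched as TGACG. The E-box, a site of many helix-loop-helix factors, was searched as CACGTG. For the myeloid transcription factor PU.1 the core searched was GAGGAAG. For the C/EBP factors, which act on many inflammatory genes of macrophages, the core searched was TTNNGNAA.
Ptgs2: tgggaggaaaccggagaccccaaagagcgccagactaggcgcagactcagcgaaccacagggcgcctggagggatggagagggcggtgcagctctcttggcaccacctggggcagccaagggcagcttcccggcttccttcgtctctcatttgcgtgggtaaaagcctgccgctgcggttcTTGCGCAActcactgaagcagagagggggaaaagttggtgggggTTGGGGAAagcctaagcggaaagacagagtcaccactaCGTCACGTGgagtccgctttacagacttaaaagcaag
Ptgs1: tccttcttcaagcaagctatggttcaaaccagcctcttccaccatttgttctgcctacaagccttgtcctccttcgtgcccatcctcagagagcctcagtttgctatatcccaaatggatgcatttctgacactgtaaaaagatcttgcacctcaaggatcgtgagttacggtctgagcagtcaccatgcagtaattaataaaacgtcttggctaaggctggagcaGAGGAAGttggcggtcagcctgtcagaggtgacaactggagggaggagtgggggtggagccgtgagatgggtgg
Hpgds: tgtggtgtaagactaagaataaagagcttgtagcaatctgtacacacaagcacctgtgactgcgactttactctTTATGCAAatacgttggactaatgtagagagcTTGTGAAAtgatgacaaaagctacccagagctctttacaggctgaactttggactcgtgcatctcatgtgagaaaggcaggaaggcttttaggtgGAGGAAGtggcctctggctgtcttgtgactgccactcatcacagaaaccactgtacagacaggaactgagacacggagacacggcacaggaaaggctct
The Ptgs2 window held 2 C/EBP matches, 69 and 25 bases before the annotated start, and a CRE match at bases 14 to 18 after it, overlapping an E-box match at bases 17 to 22. Positions are counted from the annotated start, and where transcription starts in these cells was not examined. Ptgs1 held 1 match, to PU.1, 24 bases before the start, and Hpgds held 2 C/EBP matches and 1 PU.1 match. The Hpgds gene as counted reaches to base 65144908 of chromosome 6, beyond the start that RefSeq gave. The Hpgds matches thus lie before the RefSeq start but within the gene as counted. Of 32851 promoter windows of this length, 13.6% hold the TATA box, 20.8% the CRE core, 7.15% the E-box, 13.6% the PU.1 core and 40.7% the C/EBP core. These matches are a description of the letters in the windows.

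The release of arachidonic acid showed no called change. Pla2g4a, the cytosolic phospholipase that frees arachidonic acid for both branches (chromosome 1, 149829618 to 149961290), had 35.4, 27.4, 44.1 and 30.5 CPM in mtD2- cells of mice 1 to 4 and 33.3, 30.5, 26.0 and 33.3 CPM in mtD2+ cells. The groups overlapped, with mouse 3 lower in mtD2+ and the other mice within 0.16 of 0 on the log2 scale. On the log2 scale Pla2g4a differed by -0.14 (SE 0.18, adjusted p = 0.693), with a 95% interval of -0.56 to 0.27.

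The paired cyclooxygenases, which carry out the same step, differed in how much they varied. Ptgs1, the constitutive enzyme (chromosome 2, 36230426 to 36252272), had 204, 216, 204 and 152 CPM in the mtD2- libraries and 177, 175, 159 and 155 CPM in the mtD2+ libraries. It was lower in mtD2+ in 3 of 4 mice, and the mtD2- library of mouse 4 was the lowest of the 8. Its fold change was -0.21 (SE 0.11, adjusted p = 0.298, 95% interval -0.46 to 0.04). Ptgs2, the cyclooxygenase that macrophages raise within an hour or so of a stimulus (chromosome 1, 150100031 to 150108227), had 116, 52.1, 63.5 and 141 CPM in the mtD2- libraries and 142, 84.7, 101 and 106 CPM in the mtD2+ libraries. It was higher in mtD2+ in mice 1, 2 and 3 and lower in mouse 4, and the groups overlapped. edgeR gave Ptgs2 a fold change of 0.31 (SE 0.18, adjusted p = 0.352, 95% interval -0.10 to 0.73), and 0.55 without mouse 4 (adjusted p = 0.0633). The coefficient of variation over 4 mice was 45.5% in mtD2- and 22.2% in mtD2+ for Ptgs2, against 14.7% and 6.5% for Ptgs1.

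**Figure D1:**
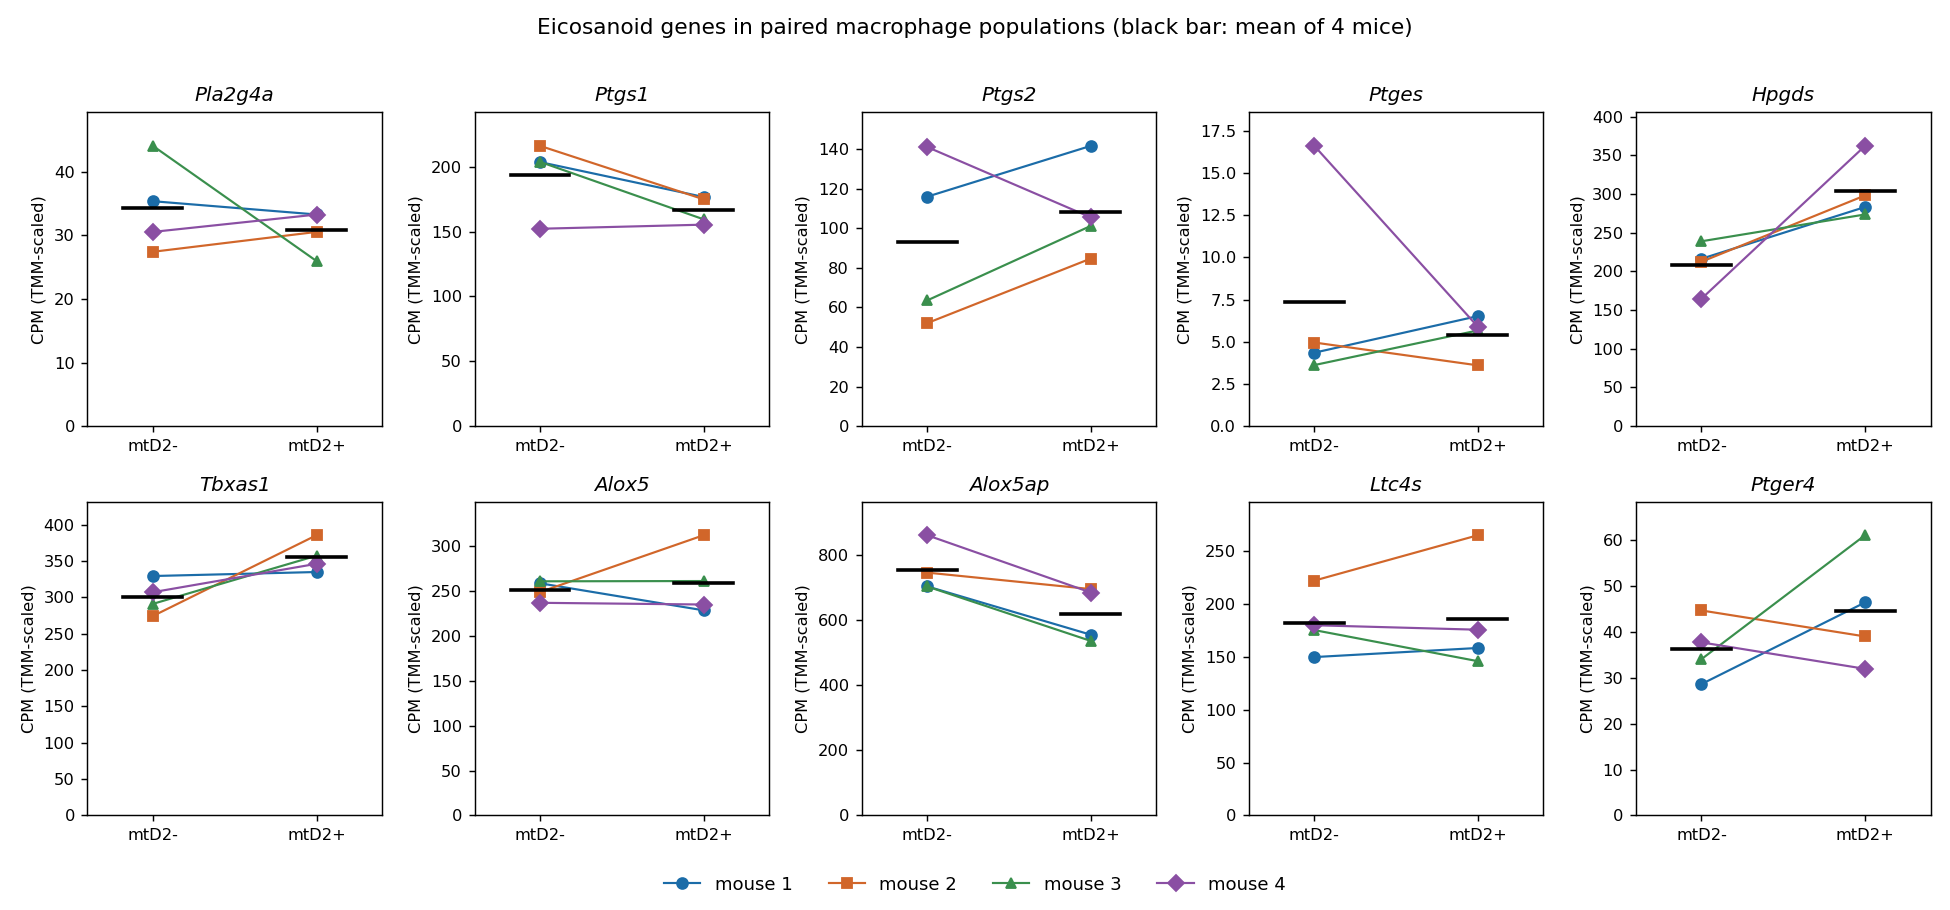
Levels of the 10 genes in CPM after TMM scaling (y axes, linear from 0) in mtD2- and mtD2+ macrophages (x axes), with 1 coloured line per mouse and a black bar at the mean of 4 mice. The lines of Hpgds and Tbxas1 go up and those of Alox5ap down in all 4 mice, while Ptgs2 and Ptges go down steeply in mouse 4, from 141 to 106 and from 16.6 to 5.88 CPM.

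Per kilobase of gene length, the level of Ptgs2 was below that of Ptgs1 in all 8 libraries. The log2 ratio of Ptgs2 to Ptgs1 was -1.05, -2.29, -1.92 and -0.35 in mtD2- and -0.56, -1.28, -0.89 and -0.80 in mtD2+ for mice 1 to 4. The ratio was thus higher in mtD2+ in 3 of 4 mice, by 0.52 ± 0.69 on average (SD, n = 4 pairs). An exact paired sign-flip permutation test, two-sided, gave p = 0.25 (0.5 adjusted over the 2 ratios examined), a test that cannot reach 0.05 with 4 pairs.

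Ptgs2 is itself an immediate early gene, and its level in each library stood beside the sum of the dissociation-responsive genes. The mtD2- libraries of mice 2 and 3, with the lowest dissociation sums (16188 and 18315 CPM), had the lowest Ptgs2. The mtD2- library of mouse 4 and the mtD2+ library of mouse 1, with sums of 33256 and 33650 CPM, had the highest. The mtD2+ library of mouse 4, with the highest sum of all (35016 CPM), had 106 CPM of Ptgs2. The mtD2+ libraries of mice 2 and 3, with sums of 29642 and 29239 CPM, had 84.7 and 101 CPM. Each of these was less than the 116 CPM of the mtD2- library of mouse 1, whose sum was 22092 CPM. Of the 24 dissociation-responsive genes, edgeR called 10 higher in mtD2+ and 0 lower, beside 3.72% and 1.78% of all tested genes. Fold changes of the 24 were positive for 21 and negative for 3. Their part in the level of Ptgs2 was not tested.

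**Figure D2:**
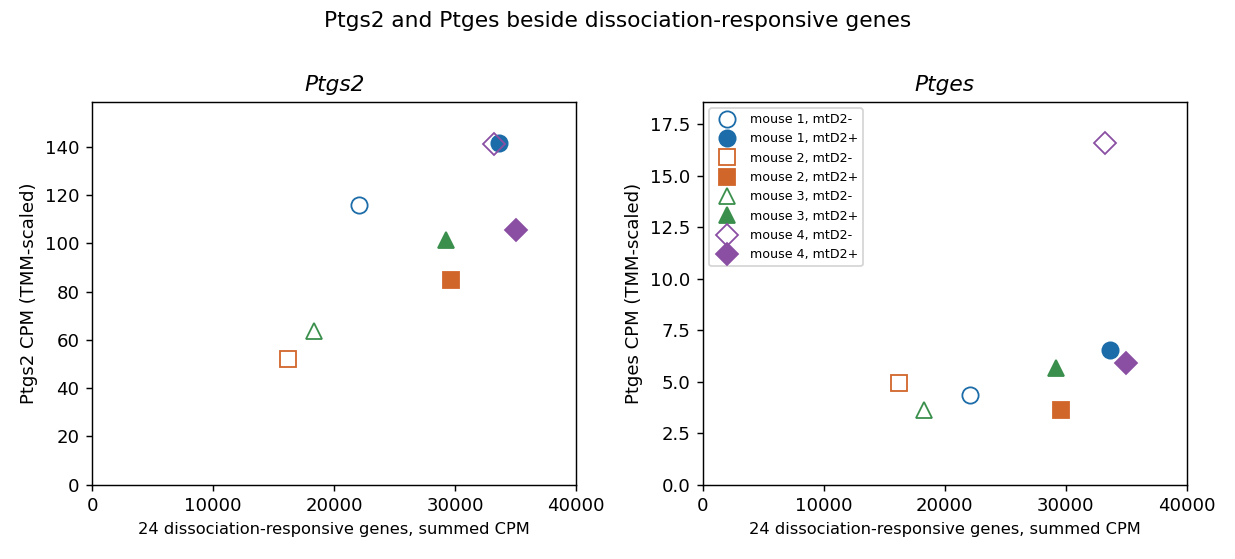
Ptgs2 (left) and Ptges (right) in CPM after TMM scaling (y axes) against the summed CPM of 24 dissociation-responsive genes (x axes) in each of the 8 libraries, with open symbols for mtD2-, filled symbols for mtD2+ and 1 colour and shape per mouse. The mtD2- libraries of mice 2 and 3 lie lowest on both axes of the Ptgs2 panel, and the mtD2- library of mouse 4 stands alone in the Ptges panel at 16.6 CPM.

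Of the 3 synthases that use prostaglandin H, Hpgds stood apart. Hpgds, which makes prostaglandin D in blood-derived cells (chromosome 6, 65117293 to 65144908), had 216, 212, 239 and 165 CPM in the mtD2- libraries and 283, 298, 274 and 362 CPM in the mtD2+ libraries. Every mtD2+ library lay above every mtD2- library. The fold change was 0.55 (SE 0.15), or 1.47-fold with a 95% interval of 1.15 to 1.87, and its adjusted p of 0.0765 did not pass. The difference was largest in mouse 4 (1.14, against 0.20 to 0.49 in the others), and without that mouse it was 0.36. It passed with no low-count filter (adjusted p = 0.0304), with DESeq2 (0.00309) and with limma voom (0.0386), and in no fit that left out a mouse (0.124 to 0.17).

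Tbxas1, the thromboxane synthase (chromosome 6, 38875404 to 39084585), had 329, 274, 291 and 307 CPM in the mtD2- libraries and 335, 385, 357 and 346 CPM in the mtD2+ libraries. Its groups did not overlap either, although mouse 1 differed by only 0.02 on the log2 scale. For Tbxas1 the fold change was 0.25 (SE 0.11, adjusted p = 0.235, 95% interval -0.01 to 0.50). Ptges, the inducible synthase of prostaglandin E (chromosome 2, 30889471 to 30929863), was the lowest of the 10 genes, with 86 to 361 counts per library. It had 4.35, 4.95, 3.62 and 16.6 CPM in the mtD2- libraries and 6.52, 3.60, 5.67 and 5.88 CPM in the mtD2+ libraries. The mtD2- library of mouse 4 was more than 10 CPM above all the others, which overlapped. The fold change was -0.18 (SE 0.41, adjusted p = 0.844) and turned to 0.26 without mouse 4, and its 95% interval, 0.46-fold to 1.70-fold, was the widest of the 10. That library also had the highest fibroblast sum, whose part in the level of Ptges was not tested.

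Set against each other per kilobase, Ptges was far below Hpgds in all libraries. The log2 ratio of Ptges to Hpgds was -5.77, -5.55, -6.18 and -3.44 in mtD2- and -5.57, -6.50, -5.72 and -6.08 in mtD2+. It was higher in mtD2+ in 2 mice and lower in 2, with a mean difference of -0.73 ± 1.41 (SD, n = 4 pairs, exact paired permutation p = 0.5, also 0.5 adjusted over the 2 ratios). Without mouse 4 the mean difference was -0.10.

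In the leukotriene branch the lipoxygenase and the cysteinyl leukotriene synthase had nearly equal levels in the populations. Alox5, the lipoxygenase that commits arachidonic acid to leukotrienes (chromosome 6, 116410077 to 116461178), had 258, 249, 261 and 237 CPM in the mtD2- libraries and 228, 312, 261 and 235 CPM in the mtD2+ libraries. The groups overlapped, and mouse 2 alone was clearly higher in mtD2+. Alox5 had a fold change of 0.03 (SE 0.115, adjusted p = 0.892, 95% interval -0.23 to 0.30). Ltc4s, which joins glutathione to the leukotriene backbone (chromosome 11, 50236469 to 50238616), had 150, 222, 175 and 180 CPM in the mtD2- libraries and 159, 265, 146 and 176 CPM in the mtD2+ libraries. Mouse 2 was the highest in both populations, and the pairs went either way. Its fold change was 0.01 (SE 0.12, adjusted p = 0.972, 95% interval -0.25 to 0.27). Both signs turned when library totals replaced TMM factors, to -0.02 for Alox5 and -0.05 for Ltc4s. Ltc4s shares 268 of its 736 counted bases with an antisense gene at 1.13 to 4.33 CPM, and since the strand setting of the counting is not given, reads of the shared bases cannot be assigned with certainty.

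Alox5ap, the membrane protein that hands arachidonic acid to the lipoxygenase (chromosome 5, 149265058 to 149288045), was the most abundant of the 10 genes. It had 704, 747, 704 and 862 CPM in the mtD2- libraries and 556, 696, 537 and 685 CPM in the mtD2+ libraries. The groups did not overlap, and it was lower in mtD2+ in 4 of 4 mice, by 0.10 to 0.39 on the log2 scale. Its fold change of -0.29 (SE 0.10, adjusted p = 0.137, 95% interval -0.52 to -0.06) did not pass. Without each mouse in turn it lay from -0.35 to -0.25. Thus 3 of the 10 genes, Hpgds and Tbxas1 upward and Alox5ap downward, had groups that did not overlap, against 12.6% of all tested genes (6.55% upward and 6.01% downward), and the same 3 went one way in all 4 mice, against 32.3%.

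The receptor of the 10, Ptger4, encodes the EP4 receptor, through which prostaglandin E raises cAMP in macrophages (chromosome 15, 5206661 to 5244187). It had 28.6, 44.6, 34.0 and 37.7 CPM in the mtD2- libraries and 46.4, 39.0, 61.0 and 31.9 CPM in the mtD2+ libraries. Mice 1 and 3 were higher in mtD2+ by 0.70 and 0.84 on the log2 scale and mice 2 and 4 lower by 0.20 and 0.24. For Ptger4 the estimate was 0.28 (SE 0.21, adjusted p = 0.474, 95% interval -0.20 to 0.75). Ptger4 shares 82 bases with Ttc33 on the other strand, a gene at 18.1 to 27.9 CPM, and 1015 of its 6648 counted bases with a pseudogene at 0 to 0.38 CPM. Alox5ap, Ptgs1 and Tbxas1 share 189, 148 and 144 bases with genes on the other strand, so their reads there carry the same doubt as those of Ltc4s.

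**Figure D3:**
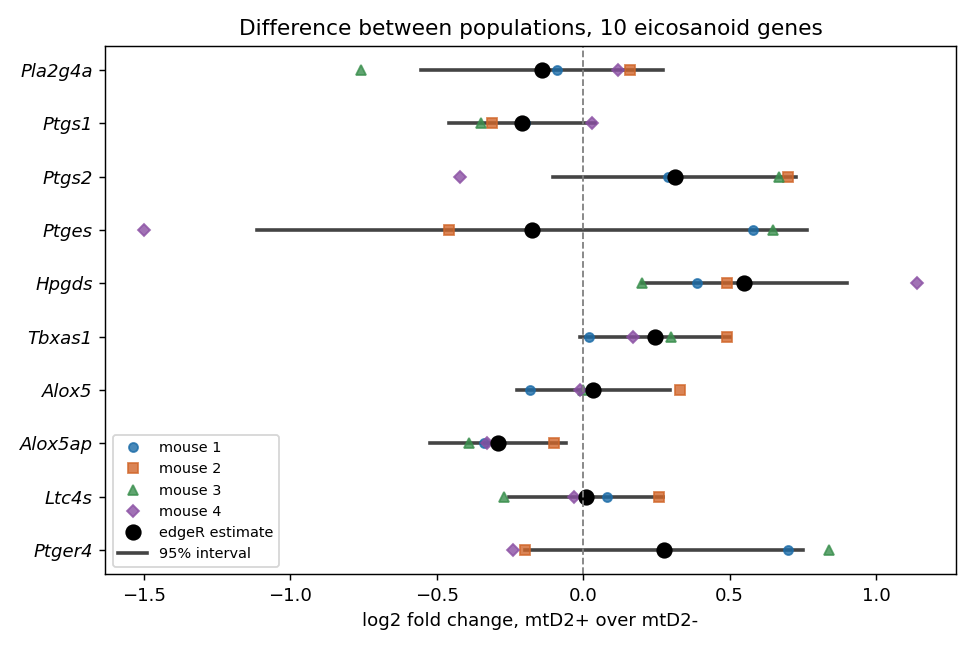
Log2 fold changes of the 10 genes, mtD2+ over mtD2- (x axis), with the edgeR estimate as a black dot, its 95% interval as a grey line and the 4 mice as coloured symbols. Hpgds at 0.55 and Alox5ap at -0.29 have intervals that leave out 0, and Ptges has the widest interval and the mouse farthest from the others, at -1.50.

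The intervals limit how large an undetected difference could be. For 6 of the 10 genes (Ptgs1, Tbxas1, Alox5, Alox5ap, Ltc4s and Pla2g4a) the 95% interval lay within 1.5-fold either way, for 9 within 2-fold, and only that of Ptges reached beyond 2-fold. Over the 10 genes 6 fold changes were positive and 4 negative, with a median of 0.02, beside a median of -0.00 over all tested genes.

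Per kilobase of length the 10 genes spanned a wide range. In mtD2- the order of mean levels in CPM per kilobase was Alox5ap at 885 ± 87.3, Ltc4s at 247 ± 40.7, Alox5 at 61.1 ± 2.66, Hpgds at 58.0 ± 8.71, Ptgs1 at 49.9 ± 7.32, Tbxas1 at 33.0 ± 2.58, Ptgs2 at 20.3 ± 9.25, Ptger4 at 5.45 ± 1.01, Pla2g4a at 5.37 ± 1.14 and Ptges at 1.88 ± 1.57 (SD, n = 4). Alox5 and Hpgds lay within their spread of each other, as did Hpgds and Ptgs1, and Ptger4 and Pla2g4a. In mtD2+ Hpgds stood above Alox5, at 84.9 ± 11.1 against 63.0 ± 9.25 CPM per kilobase, and the rest of the order was the same. The leukotriene genes Alox5ap and Ltc4s thus headed this order in both populations, above the 3 prostanoid synthases and both cyclooxygenases. The place of Ltc4s depends on the length used, 736 bases against 9094 for Tbxas1. In CPM alone its mtD2- mean, 182, lay below those of Tbxas1 (300), Alox5 (251), Hpgds (208) and Ptgs1 (194). Its mtD2+ mean, 186, lay below those of Tbxas1 (356), Hpgds (304) and Alox5 (259).

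The rest of the pathway was read from 69 other genes in 5 groups, of which 46 were tested and 23 had too few counts. Of the 46, edgeR called 3 lower in mtD2+ (1.78% of all tested genes were called lower) and 0 higher (3.72% of all tested genes were called higher). At an unadjusted p under 0.05 the counts were 10 lower and 2 higher of the 46. Over all tested genes the share was 22.8% in either direction, not split here into lower and higher. By DESeq2 the adjusted counts were 4 lower and 1 higher, beside 13.0% of all genes called, and by limma voom 3 and 0, beside 7.65%. Fold changes of the 46 were negative for 31 and positive for 15, with a median of -0.17, beside 6979 negative and 6953 positive over all tested genes. None of the 3 calls held in the fit without the mouse block, which called 1.56% of all genes.

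Hpgd was the most abundant of the 3 genes called lower. The enzyme oxidises prostaglandins E and F to inactive forms once they are inside the cell (chromosome 8, 56294552 to 56321046). It had 302, 308, 344 and 231 CPM in the mtD2- libraries and 194, 204, 185 and 197 CPM in the mtD2+ libraries. All mtD2- libraries lay above all mtD2+ libraries, and mouse 4 showed the smallest step. Hpgd fell 1.51-fold (log2 -0.59, SE 0.13, adjusted p = 0.0319). The call was kept without mouse 4 (-0.71, adjusted p = 0.0162) and lost on leaving out any other mouse (-0.59 to -0.48) or without the block (-0.60, adjusted p = 0.0597).

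Ptgis, the prostacyclin synthase, is made by vessel wall cells and fibroblasts (chromosome 2, 167191805 to 167240604). It had 14.1, 7.56, 12.0 and 11.9 CPM in the mtD2- libraries and 5.52, 5.68, 4.03 and 3.06 CPM in the mtD2+ libraries. The groups did not overlap. Ptgis fell by 1.32 on the log2 scale (SE 0.32, adjusted p = 0.0486), and the call was lost on leaving out any 1 of the 4 mice (-1.62 to -1.11) and without the block. Dpep1, a dipeptidase that turns leukotriene D into leukotriene E (chromosome 8, 123186235 to 123201810), had 35.9, 39.4, 8.28 and 85.6 CPM in the mtD2- libraries and 13.9, 15.1, 6.42 and 17.6 CPM in the mtD2+ libraries. Its groups overlapped, because mouse 3 was low in both populations, and it fell by 1.37 on the log2 scale (SE 0.27, adjusted p = 0.0245). Its call was kept without mouse 3 alone (adjusted p = 0.0266) and lost without mouse 1, 2 or 4 (-1.37 to -1.06) and without the block. The fibroblast marker sum also fell, from 2049, 1894, 1881 and 4706 CPM in mtD2- to 825.1, 935.1, 635.8 and 887.7 in mtD2+. On the log2 scale the sum differed by -1.31, -1.02, -1.56 and -2.41 in mice 1 to 4. In the same order Ptgis differed by -1.35, -0.41, -1.57 and -1.96, and Dpep1 by -1.37, -1.38, -0.37 and -2.28. Hpgd differed by -0.64, -0.60, -0.90 and -0.23. Mouse 4 had the largest fall of the sum, Ptgis and Dpep1 and the smallest of Hpgd. Mouse 3 had the smallest fall of Dpep1 and the largest of Hpgd. Endothelial marker sums were higher in mtD2+ in 2 mice and lower in 2. The part of either marker list in these falls was not tested.

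**Figure D4:**
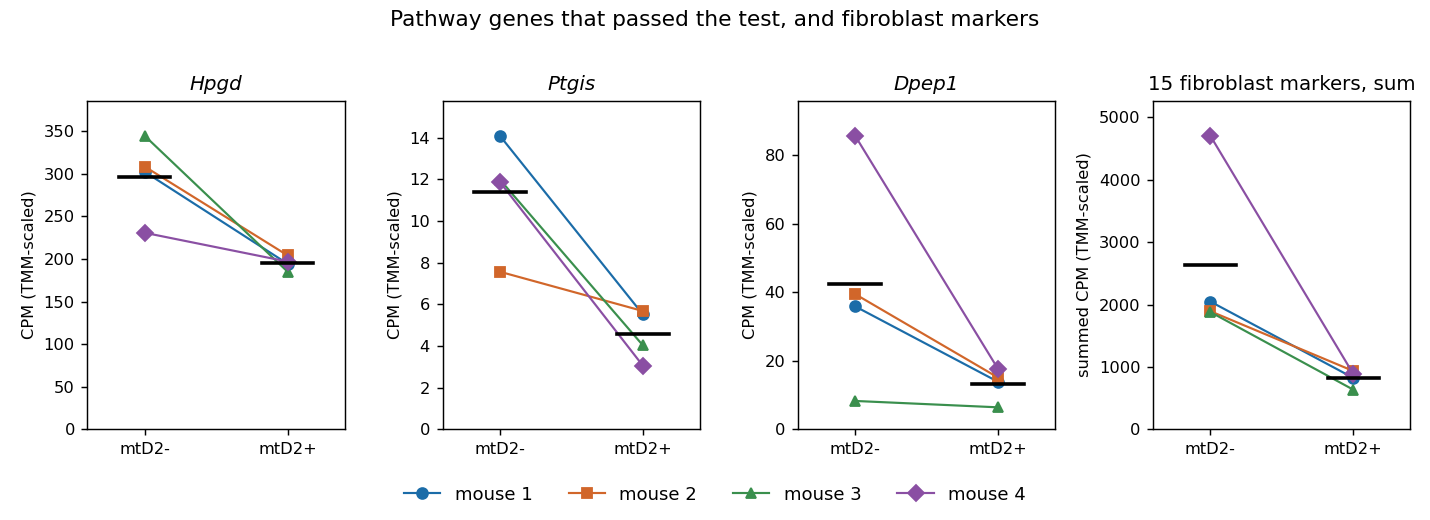
Levels of Hpgd, Ptgis and Dpep1 and the summed level of 15 fibroblast markers, in CPM after TMM scaling (y axes, linear from 0), in mtD2- and mtD2+ (x axes), with 1 coloured line per mouse and a black bar at the mean of 4 mice. Every line goes down, and the mtD2- library of mouse 4 is the highest for Dpep1 (85.6 CPM) and for the fibroblast sum (4706 CPM) but the lowest mtD2- library for Hpgd (231 CPM).

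The other groups held no calls beyond these. Of 23 genes of arachidonate release and supply, 14 were tested and 0 called, with a median fold change of -0.16. The smallest p-values were those of Lpcat2, which makes phosphatidylcholine and platelet-activating factor (15.3 ± 3.66 and 8.71 ± 2.74 CPM, log2 -0.83, adjusted p = 0.0967), and Fads1, a desaturase in the making of arachidonic acid (51.9 ± 12.5 and 37.1 ± 3.02 CPM, log2 -0.46, adjusted p = 0.112). DESeq2 called Lpcat2 (adjusted p = 0.0364). Of 7 other prostanoid synthases, 6 were tested, and beside Ptgis the smallest p-values were those of the reductases Cbr1 (log2 -0.40, adjusted p = 0.21) and Akr1b3 (log2 -0.22, adjusted p = 0.416).

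Of 15 other lipoxygenase and leukotriene genes, 9 were tested. Lta4h, which makes leukotriene B, averaged 79.3 ± 14.0 CPM in mtD2- cells and 61.3 ± 5.58 CPM in mtD2+ cells (log2 -0.36, adjusted p = 0.191), and Dpep2, another dipeptidase gene, averaged 196 ± 11.3 and 165 ± 21.1 CPM (log2 -0.26, adjusted p = 0.195). Neither passed. Of 10 genes of transport and breakdown, all were tested, and beside Hpgd the reductase Ptgr1 stood at log2 -0.37 (adjusted p = 0.176) and the leukotriene exporter Abcc1 at log2 0.29 (adjusted p = 0.165), with Abcc1 higher in mtD2+ in 4 of 4 mice. Of 14 other receptors, 7 were tested and 0 called. Fpr2, which binds lipoxin among other ligands, stood at 8.32 ± 3.04 and 4.17 ± 0.452 CPM (log2 -0.92, adjusted p = 0.149). Cysltr2, a receptor of cysteinyl leukotrienes, was near the detection limit, with 2.62, 0, 0 and 0.05 CPM in the mtD2- libraries and 1.23, 1.78, 0.75 and 0.23 CPM in the mtD2+ libraries (adjusted p = 0.31, and 0.0427 by DESeq2).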

How the data were processed

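RNA-seq libraries of mtD2- and mtD2+ macrophages from 4 mice were compared in pairs. The submitters' processing notes name bcl2fastq, the aligner STAR (2.0.4b) and, from Subread, featureCounts, with build GRCm38; they state no options and no strand setting. Per the labels' protocols, RNA came from a micro-scale column kit and was amplified with the SMARTer Ultra-Low kit. The deposited counts are whole reads per gene. The deposited CPM and RPKM follow from the counts, the library total and the gene length, checked in every library, and were not used further. Symbols came from GENCODE M21 for 40340 of 41388 genes, promoters from RefSeq.

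Counts were tested with edgeR 4.0.16 (R 4.3.3), quasi-likelihood F test, TMM factors, the mouse as a block and filterByExpr (minimum count 10, total 15, proportion 0.7), called at an adjusted p under 0.05. The test was also run on counts simulated from its own fitted model, which cannot show whether that model suits these data. The SE is the fold change over the square root of F, and 95% intervals use the test's degrees of freedom. The labels name the mouse of each library, so same-numbered libraries are pairs; their deviations from the group means correlated by 0.039, 0.07, 0.145 and 0.251 for mice 1 to 4, against at most 0.058, 0.025, 0.014 and -0.01 between the mtD2- library and an mtD2+ library of another mouse, so mouse 1 did not correlate best with itself.

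The members and lists were chosen with earlier results of these data known. Named are the 10 members, every called gene of the other pathway lists and the 2 other tested genes of smallest p in each. No member was called, so the rule's genes of most similar pattern were not drawn. Alternatives were no block, DESeq2 size factors, library totals, no filter, at least 1 CPM in 4 libraries, DESeq2 1.42.0, limma 3.58.1 voom and leaving out each mouse.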

Additional observations from a re-analysis of the deposited data

Results flagged for a closer look

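In 46 groups of 4 libraries (2 groups for each of 23 named genes), 2 held a library far from the other 3, by a rule that chance meets in about 1 of 20 groups. Ptges stood at 16.6 CPM in the mtD2- library of mouse 4, against 3.62 to 4.95 CPM in the other mtD2- libraries. Cysltr2 stood at 2.62 CPM in the mtD2- library of mouse 1, against 0 to 0.05 CPM in the others.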

How the results depend on the processing

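The number of genes called over the whole table moved from 767 to 218 without the mouse block and to 1816 with DESeq2, and leaving out each mouse gave 166 to 555. Library totals changed the share of higher calls from 67.7% to 53.8%. Of the 10 members, 0 were called higher, but 1 (Hpgds) with no low-count filter, 1 with DESeq2 and 1 with limma voom; 0 were called lower under every alternative run. Of the other pathway genes 3 were called lower, against 0 without the mouse block and 0 to 1 on leaving out each mouse, and 0 were called higher, against 1 with DESeq2. Signs turned on leaving out single mice for Ptges (-0.45 to 0.26, positive without mouse 4), Alox5 (-0.06 to 0.11, negative without mouse 2), Ltc4s (-0.07 to 0.11, negative without mouse 1 or 2) and Pla2g4a (-0.24 to 0.07, positive without mouse 3), and with library totals for Alox5 (-0.02) and Ltc4s (-0.05). The cause was not tested. Without each mouse the mean difference in the log2 ratio of Ptgs2 to Ptgs1 stayed positive and that of Ptges to Hpgds negative. Unpaired exact permutation tests of these ratios, which drop the replicate block, gave p = 0.3143 and 0.3714. Ptges had the fewest counts of the members (86 to 361 per library), and so the largest relative counting error.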
